A study of Mus musculus with 16 samples.

Results

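Of the 47 mouse spike-in transcripts with listed amounts, 24 were chosen in the plan of the study as the only spike-in of their gene locus, and the other 23 share a locus with at least 1 further spike-in. Membership in that list is the rule used here, and it reads no measured value. In that list the 2 spike-ins of Xist, AK039861 and AK051106, carry the same locus number, so the description "alone at the locus" holds for the other 22 only. The spike-ins are RNAs transcribed in vitro from cloned cDNAs. They were 923 to 4178 bases long with 33 to 59% GC, and each was added at 3 amounts, 1 in each of mixes 1, 2 and 3, between 0.1 and 10682.4 attomoles/μl.

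Embryoid bodies (EBs), which are aggregates of differentiating embryonic stem cells, were grown from R1 mouse ES cells without LIF, and total RNA was taken before retinoic acid (RA, day 0) and after 4 days in 2 μM RA (day 4). There were 2 RNA samples of each day, here replicates 1 and 2, and each was split over 4 vials that received mix 1, 2 or 3 or none of these spike-ins (mix 4), so 16 libraries were made. Each vial also received ERCC controls, ERCC mix 1 together with mixes 1 and 3 and ERCC mix 2 together with mixes 2 and 4. The p-values between mixes therefore measure the spread between the 2 RNA samples, and those between days rest on 2 against 2 RNA samples. All 4 markers of pluripotent cells were lower at day 4 with no overlap between the libraries, Pou5f1 with 10.4 to 94.4 FPKM at day 0 and 0.361 to 1.05 at day 4. Among genes of the response to RA, Rarb (0.116 to 0.226 FPKM at day 0 and 104 to 113 at day 4) and Stra6 were higher, Cyp26a1 was lower (46.0 to 56.4 and 8.07 to 9.79 FPKM) and Hoxb1 overlapped. Of 4 neural markers, Tubb3 (3.19 to 19.1 and 0.487 to 1.03 FPKM) and Sox1 were lower at day 4, Pax6 and Neurog2 overlapped, and Sox1 and Neurog2 did not exceed 0.135 and 0.058 FPKM at either day. Of 4 endoderm markers, Gata4, Foxa2 and Afp were higher at day 4 and Sox17 overlapped. Over all transcripts tested, by the means of mixes 1, 2 and 3 per RNA sample, 30.6% were higher at day 4 without overlap and 37.1% lower.

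A spike-in is useful because the amount in the tube is known, so the reads it returns per attomole can be compared with its own properties. FPKM already divides by transcript length and library size. Within a library an ideal assay would thus return the same FPKM per attomole/μl for every transcript, whatever its amount. Between RNA samples the FPKM per attomole/μl also depends on the other RNA in the library, because FPKM is relative to the library total. The ratio of FPKM to attomoles/μl is called the response here. Many of the 24 genes are tissue restricted. Among them are Gcg, the precursor of glucagon, Mapt, the microtubule protein tau of neurons, Pax8, a transcription factor of thyroid and kidney, Irf4, a transcription factor of lymphocytes, and Wnt7b, a secreted Wnt ligand.

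At day 4 the response was lower with more GC in all 6 libraries with spike-ins. To show what GC content means at the level of bases, 4 stretches of the mouse reference are printed, from the 2 protein-coding genes with the lowest and the 2 with the highest listed GC content among those whose spike-in reached more than 10 attomoles/μl and whose name matched the annotation. Each is the first 120 coding bases of the first exon with that many, in the longest coding transcript of the GENCODE annotation of GRCm38, 5′ to 3′, with G and C in capitals. They are reference transcripts and not the cloned spike-ins, whose own sequence was not used here.
Anxa10: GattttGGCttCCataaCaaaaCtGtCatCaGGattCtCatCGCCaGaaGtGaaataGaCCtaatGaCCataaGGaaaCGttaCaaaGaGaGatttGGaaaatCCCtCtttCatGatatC
Ubd: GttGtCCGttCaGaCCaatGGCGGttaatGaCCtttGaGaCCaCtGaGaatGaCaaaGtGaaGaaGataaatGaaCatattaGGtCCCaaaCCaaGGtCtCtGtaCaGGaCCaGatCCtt
Fezf2: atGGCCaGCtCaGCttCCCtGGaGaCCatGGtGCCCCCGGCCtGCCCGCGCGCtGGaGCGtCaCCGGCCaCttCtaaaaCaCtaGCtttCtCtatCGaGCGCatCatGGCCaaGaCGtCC
Wnt7b: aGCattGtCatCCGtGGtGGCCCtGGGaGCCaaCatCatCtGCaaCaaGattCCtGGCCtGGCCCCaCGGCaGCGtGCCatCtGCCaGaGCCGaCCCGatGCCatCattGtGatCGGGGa
The Anxa10 stretch lies in exon 11 on the minus strand of chromosome 8 (chr8:62060259-62060378), and G or C make up 45 of its 120 bases. The Ubd stretch lies in exon 2 on the plus strand (chr17:37195246-37195365) and has 52. Those of Fezf2 (exon 2, minus strand, chr14:12345066-12345185) and Wnt7b (exon 2, minus strand, chr15:85559010-85559129) have 75 and 73. The whole reference transcripts had 42.5, 42.9, 56.7 and 60.1% GC in this order, and the listed values of the spike-ins are 43, 44, 56 and 59%.

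In the libraries without spike-ins the 24 were at or near 0. Together they took 0.70 to 1.44% of all FPKM in the 6 day 0 libraries with spike-ins, 1.17 to 3.07% in the 6 of day 4 and at most 0.000711% in mix 4. Of the 24, the highest mix 4 values were 1.44 FPKM for Sema3b and 0.81 FPKM for Nuak2. The paper names the mix 1 library of day 4 replicate 1 as an outlier in rRNA content, and it was kept here. The mix 3 and mix 4 libraries of day 0 replicate 2 stood apart from the other day 0 libraries. In the paper's mapping statistics they had the highest share of intronic reads of all libraries and the lowest share of transcripts with reads. Over 13894 RefSeq transcripts, their log2 deviation from the mean of all libraries fell by 1.00 and 0.79 per 10 percentage points of GC, where it rose by 0.56 to 1.204 in the other 6 libraries of day 0, and at day 4 it fell by 0.21 to 0.78. Medians of single members over the day 0 libraries include the first of these.

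The 3 spike-ins with up to 10000 attomoles/μl cover a 100-fold range of amounts. Dcdc2b (AK086820, 48% GC, 1480 bases) encodes a doublecortin domain protein and went into mixes 1, 2 and 3 at 10000, 1000 and 100 attomoles/μl. Dcdc2b gave 1545, 168 and 15.1 FPKM in mixes 1, 2 and 3 of day 0 replicate 1, 1259, 136 and 13.8 in replicate 2, 3281, 328 and 21.6 in day 4 replicate 1 and 2767, 309 and 24.7 in replicate 2. At day 0, Irf4 was at 20.1, 2887 and 284 FPKM in mixes 1, 2 and 3 of replicate 1 and at 16.5, 1955 and 152 in replicate 2, and at day 4 it was at 26.8, 3808 and 294 in replicate 1 and at 22.1, 3148 and 280.3 in replicate 2. Irf4 (AK089819, 51% GC, 2626 bases) had been added at 100, 10000 and 1000. For Wnt7b, mixes 1, 2 and 3 held 127, 13 and 1208 FPKM in the first and 75.5, 5.24 and 141 in the second day 0 replicate, and 52.5, 6.55 and 549.8 in the first and 38.6, 4.01 and 342 in the second day 4 replicate. Wnt7b (AK087499, 59% GC, 3551 bases) had been added at 1000, 100 and 10000. Within each RNA sample all 3 followed the order of their amounts. Dcdc2b and Irf4 were higher at day 4 in every pair of libraries with the same mix and replicate, whereas Wnt7b was lower at day 4 in replicate 1 throughout and its mix 3 value of 141 in day 0 replicate 2 was below both day 4 values.

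The 7 members with 33 to 45% GC included the 6 with the largest median responses at day 4. AK048848 (33%, 975 bases) and AK085894 (35%, 1345 bases) have no gene name, and both were added at 5000, 50 and 500 attomoles/μl. AK048848 gave 449, 3.65 and 44.01 FPKM in mixes 1, 2 and 3 of day 0 replicate 1, 429.9, 4.59 and 129 in replicate 2, 2123, 14.1 and 114 in day 4 replicate 1 and 2282, 20.2 and 199.8 in replicate 2. At day 0, AK085894 was at 464, 4.71 and 52.4 FPKM in mixes 1, 2 and 3 of replicate 1 and at 415, 4.44 and 146 in replicate 2, and at day 4 it was at 2055, 15.9 and 137 in replicate 1 and at 1907, 20.02 and 211 in replicate 2. At 5000 attomoles/μl the day 4 replicates were 4.72 to 5.31 times as high as those of day 0 for AK048848 and 4.11 to 4.96 times for AK085894. For Anxa10, mixes 1, 2 and 3 held 84.2, 949 and 7.21 FPKM in the first and 78.7, 826 and 10.9 in the second day 0 replicate, and 241, 2219 and 14.03 in the first and 219, 2353 and 16.8 in the second day 4 replicate. Anxa10 (AK020288, 43%, 1373 bases), an annexin, had been added at 500, 5000 and 50 attomoles/μl, as had D5Ertd577e (AK054417, 44%, 2629 bases). D5Ertd577e gave 90.3, 1012 and 7.68 FPKM in mixes 1, 2 and 3 of day 0 replicate 1, 78.6, 885 and 11.8 in replicate 2, 253, 2360.5 and 13.4 in day 4 replicate 1 and 227, 2511 and 18.1 in replicate 2. D5Ertd577e was at 0.957 to 1.08 times the FPKM of Anxa10 over the 12 libraries. At day 0, Rorb was at 996, 9.66 and 100.1 FPKM in mixes 1, 2 and 3 of replicate 1 and at 841, 8.75 and 162 in replicate 2, and at day 4 it was at 2824, 22.4 and 193 in replicate 1 and at 2467, 23.99 and 254 in replicate 2. Rorb (AK044421, 45%, 2533 bases), an orphan nuclear receptor, had been added at 5000, 50 and 500. In mix 3 of day 0 replicate 2, all of these 5 were above the other day 0 replicate. Ubd (AK008552, 44%, 999 bases), a ubiquitin-like protein, had the lowest response of the 7 at day 4, with 0.101 to 0.184 FPKM per attomole/μl.

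Xist, the long non-coding RNA of X inactivation, was represented by 2 spike-ins. AK039861 (50%, 1686 bases) was added at 10682.4, 106.8 and 1068.2 attomoles/μl and AK051106 (40%, 3611 bases) at 23.4, 234 and 2340.3. At day 0, AK039861 was at 1010.5, 9.51 and 105 FPKM in mixes 1, 2 and 3 of replicate 1 and at 752, 6.08 and 56.3 in replicate 2, and at day 4 it was at 1327, 12.3 and 123 in replicate 1 and at 1026, 9.18 and 109 in replicate 2. For AK051106, mixes 1, 2 and 3 held 3.49, 44.3 and 416 FPKM in the first and 2.69, 38.1 and 825 in the second day 0 replicate, and 10.5, 121 and 903 in the first and 9.76, 135 and 1258 in the second day 4 replicate. The median response of AK039861 was 0.0797 at day 0 and 0.108 at day 4, and that of AK051106 was 0.17 and 0.482. By these medians the 2 RNAs of 1 gene lay further apart at day 4 than at day 0. In mix 3 of day 0 replicate 2 alone, their responses were 0.0527 and 0.352. AK051106, with the higher response, has less GC, but the 2 also differ in length and in the amounts added.

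Of the 8 members with 47 to 51% GC, Irf4, Dcdc2b and AK039861 are given above. Pak7 (AK032593, 47%, 4126 bases), a p21-activated kinase, Ptafr (AK032547, 51%, 1810 bases), the receptor of platelet activating factor, and the non-coding D030055H07Rik (AK051019, 50%, 2865 bases) were added at 500, 5000 and 50 attomoles/μl. Pak7 gave 57.8, 631 and 6.10 FPKM in mixes 1, 2 and 3 of day 0 replicate 1, 46.1, 502 and 6.76 in replicate 2, 124, 1163 and 9.04 in day 4 replicate 1 and 103, 1188 and 11.6 in replicate 2. At day 0, Ptafr was at 83.6, 946 and 7.52 FPKM in mixes 1, 2 and 3 of replicate 1 and at 65.6, 709 and 3.76 in replicate 2, and at day 4 it was at 115, 1325 and 7.33 in replicate 1 and at 93.2, 1102 and 6.53 in replicate 2. For D030055H07Rik, mixes 1, 2 and 3 held 75.7, 815 and 7.93 FPKM in the first and 55.5, 549.7 and 4.34 in the second day 0 replicate, and 103, 1092 and 8.75 in the first and 81.3, 922 and 7.95 in the second day 4 replicate. In mixes 1 and 2 each of the 3 was higher in both day 4 replicates than in both day 0 replicates. Gcg (AK007911, 48%, 923 bases) had responses of 0.0681 to 0.119 at day 0 and 0.11 to 0.165 at day 4.

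Of the 9 members with 53 to 59% GC, 7 were added above 10 attomoles/μl, Wnt7b among them. Fezf2 (AK019996, 56%, 2210 bases), a zinc finger transcription factor of the forebrain, was added at 50, 500 and 5000 attomoles/μl, as were Pkp1 (AK036856, 55%, 4178 bases), a desmosomal plakophilin, Nuak2 (AK033672, 54%, 3246 bases), an AMPK-related kinase, and Cd300lf (AK089313, 53%, 1212 bases), a receptor of myeloid cells. Fezf2 gave 1.06, 16.5 and 171 FPKM in mixes 1, 2 and 3 of day 0 replicate 1, 0.770, 8 and 35.7 in replicate 2, 0.637, 9.63 and 91.2 in day 4 replicate 1 and 0.350, 7.61 and 66.9 in replicate 2. At day 0, Pkp1 was at 6.53, 86.6 and 838 FPKM in mixes 1, 2 and 3 of replicate 1 and at 4.62, 45.3 and 150.3 in replicate 2, and at day 4 it was at 3.85, 62.8 and 502 in replicate 1 and at 2.99, 42.3 and 352 in replicate 2. Fezf2 was thus below Pkp1 in each of the 12 libraries, although the same amount was added and their GC contents differ by 1 point. For Nuak2, mixes 1, 2 and 3 held 4.91, 44.3 and 425 FPKM in the first and 2.92, 22.7 and 177 in the second day 0 replicate, and 3.87, 40.1 and 350.3 in the first and 3.19, 33.2 and 317 in the second day 4 replicate. Cd300lf gave 6.76, 102 and 1187 FPKM in mixes 1, 2 and 3 of day 0 replicate 1, 6.27, 63.9 and 341 in replicate 2, 7.57, 109 and 981 in day 4 replicate 1 and 6.73, 83.2 and 786 in replicate 2. Mapt (AK078167, 54%, 1715 bases) and Pax8 (AK050717, 54%, 2685 bases) were added at 5000, 50 and 500. At day 0, Mapt was at 355, 2.34 and 31.6 FPKM in mixes 1, 2 and 3 of replicate 1 and at 224, 1.43 and 9.99 in replicate 2, and at day 4 it was at 253, 2.19 and 26.6 in replicate 1 and at 173, 1.46 and 16.5 in replicate 2. For Pax8, mixes 1, 2 and 3 held 444, 4.76 and 47.1 FPKM in the first and 284, 2.32 and 14.2 in the second day 0 replicate, and 342, 3.99 and 34.98 in the first and 263, 2.21 and 27.1 in the second day 4 replicate. In mix 3, all 6 had their lowest value in day 0 replicate 2. At 5000 attomoles/μl, day 0 replicate 1 was 3.48, 5.57 and 4.80 times as high as replicate 2 for Cd300lf, Pkp1 and Fezf2.

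Of the 3 members with at most 10 attomoles/μl, 2 were listed at 0 at the lowest amount in every RNA sample. 4930506M07Rik (AK015721, 50%, 1425 bases), a transcript of the shootin gene Shtn1, was added at 0.1, 1 and 10 attomoles/μl. 4930506M07Rik gave 0, 0.226 and 1.12 FPKM in mixes 1, 2 and 3 of day 0 replicate 1, 0, 0.216 and 0.138 in replicate 2, 0, 0 and 1.13 in day 4 replicate 1 and 0, 0 and 0.956 in replicate 2. It was listed at 0 at 0.1 attomoles/μl in all 4 RNA samples and at 1 attomole/μl in both of day 4. Cacng2 (AK045362, 55%, 2579 bases), a regulator of AMPA receptors, was added at 1, 10 and 0.1. At day 0, Cacng2 was at 0.045, 0.323 and 0 FPKM in mixes 1, 2 and 3 of replicate 1 and at 0.010, 0.265 and 0 in replicate 2, and at day 4 it was at 0.098, 0.412 and 0 in replicate 1 and at 0, 0.333 and 0 in replicate 2. At the lowest amount Cacng2 was listed at 0 in every RNA sample, and at the highest its values correspond to an estimated 22.2 to 34.8 fragments. For Sema3b, mixes 1, 2 and 3 held 2.56, 1.14 and 0.926 FPKM in the first and 1.67, 0.806 and 0.029 in the second day 0 replicate, and 0.725, 0.230 and 0.224 in the first and 0.340, 0.038 and 0 in the second day 4 replicate. Sema3b (AK037034, 57%, 3482 bases), a secreted semaphorin, had been added at 10, 0.1 and 1. Without the spike-in (mix 4) Sema3b was still listed at 1.44 and 0 FPKM in the day 0 replicates and 0.093 and 0.149 in those of day 4, so in day 0 replicate 1 the library without the spike-in was above those with 0.1 and 1 attomole/μl.

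Responses varied among the 21 members above 10 attomoles/μl by 8.3 to 12.2-fold between the highest and the lowest in 5 day 0 libraries, by 49.4-fold in mix 3 of day 0 replicate 2 and by 21.2 to 68.5-fold at day 4. The median response was 0.087 to 0.13 FPKM per attomole/μl in the libraries of day 0 and 0.158 to 0.218 in those of day 4. The 7 of them with 33 to 45% GC had medians between 0.115 and 0.258 at day 0 and between 0.274 and 0.471 at day 4. For the 7 with 47 to 51% the medians were 0.101 to 0.163 and 0.159 to 0.233, and for the 7 with 53 to 59% they were 0.0284 to 0.0983 and 0.0444 to 0.08. The median of the low GC group was 1.52 to 3.50 times that of the high GC group in 5 day 0 libraries, 9.11 times in mix 3 of day 0 replicate 2 and 3.91 to 10.6 times at day 4. Rorb had the highest median response at day 4 (0.487) and Fezf2 the lowest of the 21 (0.0143). At day 0 they were 0.196 and 0.0186.

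As a line over all 24, the log2 response changed by -0.36 ± 0.63 per 10 percentage points of GC at day 0 and by -1.50 ± 0.45 at day 4 (mean ± SD, n = 2 RNA samples per day). At day 0 the slope was 0.085 in replicate 1 and -0.81 in replicate 2, a difference larger than the mean itself, and at day 4 it was -1.18 and -1.81. Without the mix 3 library of day 0 replicate 2 the day 0 mean was -0.11. Over the 21 above 10 attomoles/μl the slopes were -0.58 ± 0.61 and -1.54 ± 0.30. There the day 0 replicates were at -0.15 and -1.01, and every day 0 library had a negative slope, from -1.95 to -0.11. The positive slope of day 0 replicate 1 was thus seen only with the low members included. Across these 21, Pearson's r between GC and log2 response was -0.11 to -0.48 in 5 libraries of day 0, -0.83 in mix 3 of day 0 replicate 2 and -0.68 to -0.79 in the 6 of day 4. The points of a library share its depth and its RNA, so these are descriptions. In the same libraries the slope on GC of the RefSeq transcripts, relative to their mean over all libraries, was 1.16 and 0.15 for the day 0 replicates and -0.35 and -0.75 for those of day 4. Its part in the slopes of the spike-ins was not tested, and with a correction for it they were -0.88 at day 0 and -1.10 at day 4.

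With length, the log2 response over all 24 changed by 0.15 ± 0.18 per 1000 bases at day 0. At day 4 it changed by -0.13 ± 0.15, and both values lie within 1 SD of 0. Without the mix 3 library of day 0 replicate 2 the day 0 mean was 0.21. Longer members also had more GC (r = 0.40 over 24), and with GC in the same fit the length slopes over all 24 were 0.30 and 0.31. These include the 3 low members. Among them Sema3b, with 3482 bases, had responses of up to 11.4 at 0.1 attomoles/μl and was also listed above 0 without the spike-in. Over the 21 above 10 attomoles/μl, length alone gave slopes of 0.027 ± 0.16 at day 0 and -0.19 ± 0.054 at day 4. Every library of day 4 then had a negative slope, from -0.27 to -0.10. Across the 21, r between length and log2 response ran from -0.18 to 0.21 over the 12 libraries. Ubd and AK048848, of 999 and 975 bases, had medians at day 4 of 0.162 and 0.402, and Pkp1 and Pak7, of 4178 and 4126 bases, had 0.0808 and 0.233.

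The response changed far less than the amount added. In the 16 members of the GC and length series other than Xist, the median response was 0.093, 0.112 and 0.101 at 50, 500 and 5000 attomoles/μl at day 0 and 0.149, 0.177 and 0.190 at day 4, each over 32 values. Without the mix 3 library of day 0 replicate 2 those of day 0 were 0.093, 0.111 and 0.110. By GC group, the day 4 medians at 50 and 5000 attomoles/μl were 0.327 and 0.450 (33 to 45%), 0.156 and 0.219 (47 to 51%) and 0.062 and 0.066 (53 to 59%). At day 0, with that library included, they were 0.119 and 0.136, 0.104 and 0.122, and 0.075 and 0.063. The calibration slope, which is the slope of log2 FPKM on log2 amount over mixes 1, 2 and 3 and is 1 for a proportional response, had a median over the 24 of 1.01 ± 0.035 at day 0 and 1.04 ± 0.014 at day 4 (SD, n = 2 RNA samples). It lay within 0.1 of 1 for 20 and 14 of 24 in the day 0 replicates and for 19 of 24 in both of day 4. Over the 21 above 10 attomoles/μl the counts were 19 and 14 at day 0 and 18 in both of day 4. Slopes of members listed at 0 depend on the 0.01 added to the FPKM. Thus 4930506M07Rik had slopes of 1.03 and 0.99 at day 4 with 0 FPKM in mixes 1 and 2, which show no proportional response. The lowest slopes were those of Sema3b, 0.175 and 0.157 at day 0 and 0.243 and 0.431 at day 4. Cacng2 lay between 0.72 and 0.81. In day 0 replicate 2, 4930506M07Rik (0.585), Wnt7b (0.714), Pkp1 (0.756), Fezf2 (0.830), Cd300lf (0.868) and Nuak2 (0.891), all added at their highest amount in mix 3, lay below their slopes in the other RNA samples, and AK051106 was at 1.24. Without the mix 3 library, 18 of 24 in this replicate lay within 0.1 of 1, and the median over both day 0 replicates was 1.03. Of the 23 spike-ins that share a locus, 6 and 5 lay within 0.1 of 1 at day 0 and 9 and 5 at day 4, with medians of 1.10 ± 0.051 and 1.10 ± 0.0086. This contrast was not tested, since spike-ins are no replicates, and the amounts differed too. The 23 were added at 1.5 to 1000 attomoles/μl, while 16 of the 24 were added at 50, 500 and 5000.

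The 2 replicates of a day and mix received the same amounts. Over the 21 members, the median of log2 replicate 1 minus replicate 2 was 0.33, 0.52 and 0.87 in mixes 1, 2 and 3 of day 0 and 0.28, 0.24 and 0.07 at day 4. In mix 3 of day 0 the differences ran from -1.55 to 3.10 and had an SD of 1.31, against 0.20 to 0.43 in the other 5 pairs. In all 6 pairs the difference rose with GC content, by 0.22 to 0.58 per 10 percentage points in 5 of them and by 1.84 in mix 3 of day 0, with r from 0.73 to 0.95.

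The comparison between mixes asks whether a known difference in amount is found. Of 144 comparisons at day 0 (24 spike-ins, 6 pairs of mixes), limma called 74 at an adjusted p of at most 0.05, and of 144 at day 4 it called 125. Over all transcripts tested, 0.0953% of comparisons were called at day 0 and 0.251% at day 4, the spike-ins included. Without adjustment, at a p of at most 0.05, the counts were 130 and 132. Between mixes 1, 2 and 3, where the amounts fix the direction, 21 of 72 were called at day 0 and 62 at day 4, and each of these had the direction of the amounts. Among the 21 above 10 attomoles/μl, those with 33 to 45% GC were called in 30 of 42 comparisons at day 0, those with 47 to 51% in 33 and those with 53 to 59% in 10. At day 4 the counts were 42, 41 and 39. The 3 low members were called in 1 of 18 at day 0 (Cacng2) and 3 of 18 at day 4 (4930506M07Rik). Without mixes 3 and 4 of replicate 2, only 16 comparisons were called at day 0, in a fit with 6 libraries, without mix 3 of replicate 2 alone 80 were, and with the correction for GC 126 were.

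The sizes of the changes were near the known ones. For the 21, the observed log2 change deviated from that of the amounts by 0.23 (day 0) and 0.19 (day 4) in the median of 63 comparisons each, and by at most 1.25 and 0.81. For the 3 low members the medians were 2.99 and 3.13. Near 0 the 0.1 added to the FPKM limits the change that can be seen. Cacng2 changed by 2.24 between mixes 2 and 3 of day 4, against 6.64 for the amounts. Sema3b was also listed above 0 without the spike-in. Without the mix 3 library of day 0 replicate 2 the day 0 median of the 21 was 0.26, with at most 0.84, and that of the 3 was 2.99. The change between mixes did not pass the test of a difference between the days in any of 72 comparisons by limma (0.0389% over all transcripts), with 2 at an unadjusted p of at most 0.05. These were 4930506M07Rik between mixes 2 and 3 and Anxa10 between mixes 1 and 3, both named after their values were seen. Without mixes 3 and 4 of day 0 replicate 2, 2 comparisons were called, both of 4930506M07Rik (mixes 1 and 2, 1.68 ± 0.18, adjusted p = 0.0151, and mixes 2 and 3, -1.58 ± 0.20, adjusted p = 0.0182, with SE), which is listed at 0 in several of these libraries.

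Since every vial of a mix received the same amounts at both days, the day comparison of a spike-in asks how far its FPKM depend on the RNA sample. On the mean log2(FPKM + 0.1) of mixes 1, 2 and 3, 9 of 24 were higher at day 4 by limma and 0 were lower, where 11.8% of all transcripts tested were higher and 9.06% lower. Without adjustment 10 were past a p of 0.05. All 7 with 33 to 45% GC were among the 9, with log2 differences from 0.80 to 1.78. AK048848 was higher by 1.78 ± 0.30 (SE, adjusted p = 0.0361), AK085894 by 1.69 ± 0.21 (adjusted p = 0.0238) and AK051106 of Xist by 1.40 ± 0.14 (adjusted p = 0.0183). Anxa10, Rorb and D5Ertd577e were higher by 1.21, 1.22 and 1.19, and Ubd by 0.80. The other 2 were Pak7 (0.95, adjusted p = 0.0259) and Dcdc2b (0.95, adjusted p = 0.0318), with 47 and 48% GC.

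None of the 9 with 53 to 59% GC passed the test, nor did 6 of the 8 with 47 to 51%. Wnt7b differed by -0.57 ± 0.68 (adjusted p = 0.544), Fezf2 by -0.41 ± 0.51 (adjusted p = 0.568) and Pkp1 by -0.24 ± 0.52 (adjusted p = 0.745), and these errors leave room for a difference in either direction. Mapt, Pax8, Nuak2 and Cd300lf lay between -0.08 and 0.28. Sema3b, also listed at up to 1.44 FPKM without the spike-in, differed by -1.73 ± 0.74 (adjusted p = 0.174). Gcg was at 0.67 (adjusted p = 0.0721). The 2 RNA samples of each day did not overlap for 15 of 24, 14 of them higher at day 4, where 30.6% of all transcripts were so higher and 37.1% lower. Across the 21, the day difference fell by 0.95 on the log2 scale per 10 percentage points of GC (r = -0.96), and the r with length was -0.33.

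The median day difference was 0.49 over the 24 and -0.06 over all 27807 transcripts tested. In the fit with the replicate as a block, 10 were higher and 1 lower, Gcg (adjusted p = 0.0267) and Sema3b (adjusted p = 0.0349) being added. Sema3b was listed at 1.44 FPKM in mix 4 of day 0 replicate 1, without the spike-in. Its day difference is thus not that of the response alone. The share of all transcripts called was computed for the main fit only, not for the alternative fits. In mixes 1 and 2 only, which leaves out the library that stood apart, 10 were higher and 2 lower, the latter being Sema3b and 4930506M07Rik. In mix 2, 4930506M07Rik was at 0.226 and 0.216 FPKM in the day 0 replicates and at 0 in those of day 4. It was at 0 in mix 1 of every RNA sample. In this fit the 7 with 33 to 45% GC were all called, at 0.97 to 2.17. The 7 above 10 attomoles/μl with 53 to 59% lay between -0.90 and 0.18 with none called. With the correction for GC, 16 were higher and 0 lower, and with any 1 RNA sample left out at most 1 was called. The GC slope of the RefSeq transcripts and the sum of FPKM (411089.5 to 622887.5 per library) also differed between the libraries, and their part was not tested.

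The table also lists 37 RefSeq transcripts of the genes of 20 of the spike-ins. These may share sequence with the spike-in, so reads of 1 can be assigned to the other. Of them, 32 could be tested at day 0 and 29 at day 4, and 8 of 192 comparisons between mixes (4.17%) and 26 of 174 (14.9%) were called. Of these 34 calls, 33 had the direction of the amount of the spike-in, that of AK039861 being used for Xist, and 28 transcripts were never called. The other call, NR_001463 of Xist between mixes 1 and 3 at day 4 (log2 difference -2.21), had the direction of the amounts of AK051106. The Pax8 transcript NM_011040 was called in 8 of 12 comparisons. In mix 1, which held 5000 attomoles/μl of the spike-in, this transcript was at 146 and 101 FPKM in the day 0 replicates and at 154 and 115 in those of day 4, and in mix 4 it was at 0 to 0.102. This was 24.7 to 31.1% of the FPKM of the pair of transcripts. The Anxa10 transcript NM_011922 was called in 7, with 10.5 to 32.9 FPKM at 5000 attomoles/μl and at most 0.039 in mix 4, but only 1.01 to 1.46% of the pair. The Ubd transcript NM_023137 (83.8 to 285 FPKM) and the Ptafr transcript NM_001081211 (51.3 to 143 FPKM) were called in 4 each, and took 14.2 to 23.9% and 5.89 to 13.1%. NM_008100 of Gcg and NR_001570 of Xist were called in 3, and NM_001169153 of Cd300lf and NR_001463 of Xist in 2.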

How the data were processed

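Libraries were prepared by the authors with the Illumina strand specific total RNA kit from the 16 vials, and reads were mapped with Bowtie2 2.1.0 to RefSeq transcripts of mm10 and the spike-ins. RSEM 1.2.18 estimated abundances, and the deposited table holds 1 FPKM value per transcript and library, scaled by the authors with TMM. TopHat2 2.0.10, also in the submitters' processing notes, aligned reads to the genome for other steps of the study, not used here. All 16 columns matched a sample title (0 without a sample). Names, GC, length and amounts of the spike-ins were taken from the study's supplementary tables.

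The table holds no counts. Low FPKM values of 4519 genes with 1 transcript, multiplied by length less 50 bases, fell on whole multiples of 1 step per library, with 81.8 to 88.0% of the values within 0.2 of a whole number, and fragments behind single values were estimated from that step. These cover counting only and no interval was made from them.

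Fits used limma 3.58.1 in R 4.3.3 on log2(FPKM + 0.1), with lmFit, eBayes with a trend and all transcripts above 0 in any library, and Benjamini-Hochberg adjustment over the whole table within each comparison (adjusted p of at most 0.05). Fold changes on this scale understate those of low transcripts. The authors tested RSEM output with EBSeq. Mixes were compared in the 8 libraries of a day, and days on the mean of mixes 1, 2 and 3 of each RNA sample. Responses and slopes used log2(FPKM + 0.01) with Python 3.11.15, numpy 2.4.6 and pandas 2.3.3. The GC correction subtracted each library's deviation in 20 GC bins of 13894 RefSeq transcripts, and the members at 33 and 35% lie below its lowest bin, at 38.7%. Fits and slopes were tested on simulated data.

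By the study's supplementary table, the libraries of a day that share a replicate number were split from 1 RNA sample, so the numbers pair them. Between pairs of mixes, the replicate differences of 14095 transcripts had an r of 0.41 to 0.92 (day 0) and 0.055 to 0.49 (day 4). The members, the GC groups and the lists were chosen with earlier results of these data known. Per library values are given for the 3 spike-ins with 10000 attomoles/μl, the 3 with at most 10, the 2 of Xist, and those with the highest and lowest GC content and day difference of the rest, ties included. RefSeq transcripts were named from 2 calls of 12. The alternatives were other pseudocounts, a filter at a mean of 1 FPKM, scaling, variance models, the GC correction and the replicate block. They also held single mixes, left out libraries or RNA samples and, for the days, FPKM less the mix 4 value. After the data were seen, mixes 1 and 2 only and sums with the RefSeq transcripts were added. So were slopes without the low members, and responses and deviations without mix 3 of day 0 replicate 2. The ERCC controls were not used here. A marker gene of the RA list is not reported here.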

Additional observations from a re-analysis of the deposited data

Results flagged for a closer look

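AK050326 is the 1 row of the table with a name like those of the spike-ins for which no amounts were listed. It entered no comparison of the spike-ins. The paper left out 1 further spike-in, of 1700047L14Rik, for an error in its concentration. Whether AK050326 is that spike-in was not checked. AK050326 was at 0 FPKM in the 4 libraries without spike-ins and in 10 of the 12 with them. It was above 0 in mix 3 of day 4 replicate 1 (0.009 FPKM) and in mix 1 of day 4 replicate 2 (0.01 FPKM). No group had the 4 libraries that a check for single outlying libraries needs.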

How the results depend on the processing

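The count of 74 comparisons between mixes called at day 0 depended on the settings. It was 126 with the GC correction, 15 with only the 4 libraries of the 2 mixes in each fit, 16 without mixes 3 and 4 of replicate 2, and 29 to 80 when each library was left out in turn, the lone library of an arm being assumed to vary like the others. By library it was 29 and 36 without mix 1 of replicate 1 and 2, 35 and 37 without mix 2, 71 and 80 without mix 3, and 42 without mix 4 of either. The 125 at day 4 stayed between 92 and 126 in all alternatives. With the replicate block, 68 and 125 were called between mixes, and 8 and 18 for the RefSeq transcripts of the genes. The block added 1 spike-in that was lower at day 4 and changed no other count by over 1.5 times.

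The 9 spike-ins higher at day 4 were 16 with the GC correction, 0 in mix 3 alone and 0 to 1 when an RNA sample was left out, which leaves 1 against 2. The number lower, 0, was 1 in mix 1 alone, in mix 2 alone and with the block, and 2 in mixes 1 and 2 only. The difference between days in the change between mixes, 0 of 72, was 2 without mixes 3 and 4 of day 0 replicate 2. Causes were not tested, and the share of all transcripts called was computed for the main fits only.

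Single day differences kept direction and call in 294 cases, lost the call in 46, gained it in 14 and changed sign in 25, none of the latter called at first. With the GC correction Mapt was at 0.62, Fezf2 at 0.60, Pax8 at 0.65, Pkp1 at 0.61 and Wnt7b at 0.90. In mix 3 alone Mapt was at 0.23, Pax8 at 0.25, Pkp1 at 0.24, Wnt7b at 0.073 and 4930506M07Rik at 1.08. Nuak2 was at -0.10 in mix 1 alone, Pax8 at 0.0042 after rescaling by the median ratio and 4930506M07Rik at 0.035 with a pseudocount of 1. With 1 RNA sample left out, the differences ran from -0.57 to 0.42 for Mapt, -1.02 to 0.21 for Fezf2, -0.61 to 0.51 for Pax8, -0.89 to 0.41 for Pkp1, -0.60 to 0.20 for 4930506M07Rik, -1.43 to 0.28 for Wnt7b, -0.15 to 0.71 for Cd300lf, -0.37 to 0.62 for Nuak2 and -0.066 to 0.34 for Cacng2. The GC slope at day 0 ran from -0.81 to 0.085 in this way. The length slope was -0.0023 at day 0 with the GC correction and 0.31 at day 4 with GC in the fit. The GC slope at day 4 kept its sign in every alternative. Both calibration slopes did so too, but their sign is set by the amounts added and no alternative could be expected to change it. The 3 members with at most 10 attomoles/μl were each listed at 0 in at least 1 library with the spike-in.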
